A study of Mus musculus with 4 samples.

Results

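The 6 chemokine receptor genes Ccr1, Ccr2, Ccr7, Ccrl2, Cxcr4 and Cx3cr1 were read by gene name from the deposited table of 54532 genes, where each name was found once. All 6 were among the 13715 genes that reached 10 reads in some library. The table holds 4 RNA-seq libraries of macrophages from the peritoneal fluid of WT mice. 2 cultures were kept in normal medium and 2 in 30% 4T1-CM, which is culture supernatant of 4T1 mouse breast cancer cells diluted in fresh medium. Within a medium, the cultures differed in what was added, either the solvent DMSO or CH223191 at 10 µM, which blocks the aryl hydrocarbon receptor (AHR). In the methods of the study, peritoneal macrophages came from BALB/c mice 5 days after an injection of thioglycollate broth, which draws inflammatory macrophages into the cavity, and WT mice were 8 to 10 weeks old. The macrophages adhered for 6 h and took up DMSO or CH223191 for 2 h before the medium was changed. How long these 4 cultures then grew, and whether mice were pooled, is not given in the sources used here. The comparisons ask how 4T1-CM changes the receptors and whether CH223191 alters that response.

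Chemokine receptors are seven-transmembrane receptors that couple to inhibitory G proteins and steer leukocytes along gradients of chemokines. On macrophages and their monocyte precursors they set where the cells go and where they are held, and their transcripts are known to change as a monocyte matures in tissue or meets inflammatory signals. CCR1 binds several inflammatory CC chemokines such as CCL3 and CCL5, and CCR2 binds CCL2 and draws monocytes out of the bone marrow. CXCR4 binds CXCL12 and holds cells in the marrow and in tissues, and CX3CR1 binds CX3CL1 and marks patrolling monocytes and many resident macrophages. CCR7 binds CCL19 and CCL21 and leads mature dendritic cells to lymph nodes. CCRL2 is an atypical receptor that does not signal in the usual way and presents the attractant chemerin to cells bearing CMKLR1.

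With 1 library for a condition, nothing is known of how far repeat cultures would lie apart, and pairs of libraries could not be tested. The libraries held 15535405 to 17557127 reads on genes, with scaling factors of 0.986 to 1.03. Levels are given as CPM, which are reads scaled to a common library total after TMM. The 95% intervals below cover counting error only and compare libraries, not conditions. The 8 macrophage markers fixed for the check of cell type (Adgre1, Csf1r, Cd68, Itgam, Lyz2, Fcgr1, Mertk and Cd14) were found in every library, with 255 reads or more each. Of the T and NK cell list, 7 of the 10 genes, among them Cd3e, Cd3d, Cd3g and Trac, had 0 reads in every library. Lck had 7 to 18 reads, Cd4 3 to 11 and Klrb1c at most 6. The 7 epithelial genes that would mark 4T1 cells summed to at most 1.48 CPM. Among them, Cdh1 had 3 and 7 reads in normal medium with DMSO and CH223191, and 16 and 20 in 4T1-CM.

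With 4T1-CM and DMSO, the transcripts of 5 of the 6 receptors were at least 2-fold higher than in normal medium, as were 12.2% of all genes, and Ccr2 was the exception. The 3 abundant receptors Ccr1, Ccrl2 and Cxcr4 were 2.24-fold to 3.08-fold higher with DMSO. Cx3cr1 and Ccr7, at or near 0 in normal medium, appeared in both libraries with 4T1-CM. They were kept only through their reads in those libraries, so the choice of genes favoured their being higher. The 12.2% of all genes is therefore no measure for Cx3cr1 and Ccr7. With CH223191, Ccrl2 and Cxcr4 were nearly where they were with DMSO in either medium, and Ccr1 was 1.38-fold higher in normal medium. Whole cultures were sequenced, so more cells of a type and more RNA per cell cannot be told apart.

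**Figure D1:**
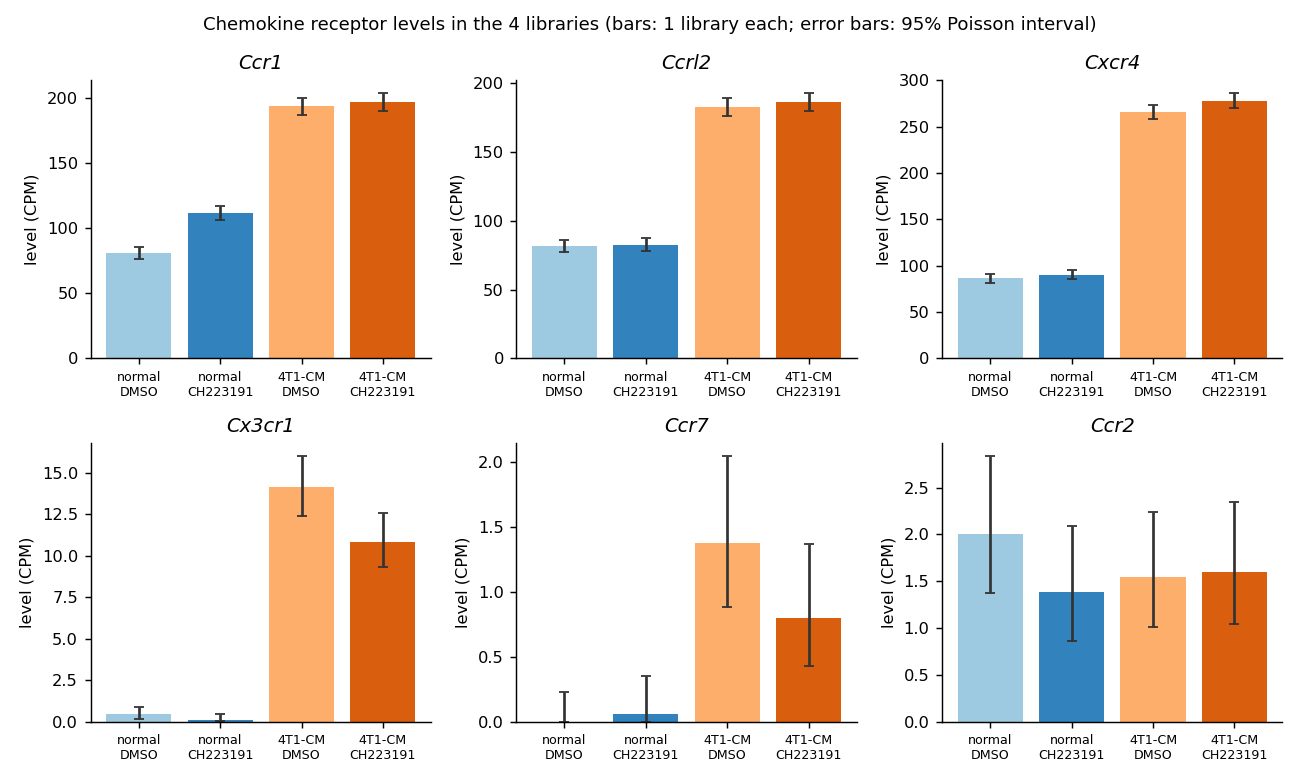
Level of each of the 6 receptors in CPM (y axis, starting at 0, with a scale of its own in each panel) in the 4 libraries. Each bar is 1 library and each error bar the exact 95% Poisson interval of its reads. The bars of 4T1-CM stand above those of normal medium for Ccr1, Ccrl2, Cxcr4, Cx3cr1 and Ccr7, and the intervals of Ccr2 overlap in all 4 libraries.

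The genes of the abundant receptors are compact. Ccr1 lies on the minus strand of chromosome 9 (chr9:123962124-123968692, GRCm38), with 2 exons, of which 1 is coding. Ccrl2 lies on the same strand of chromosome 9 (chr9:111054486-111057519), also with 1 of its 2 exons coding, and Cxcr4 lies on the minus strand of chromosome 1 (chr1:128588199-128592293), where both exons carry coding sequence. Cx3cr1 (chr9:119901616-120069879) and Ccr2 (chr9:124101950-124113557, plus strand) are on chromosome 9 as well, and Ccr7 is on chromosome 11 (chr11:99144196-99155077). The deposited coordinates of all 6 were identical to those of GENCODE M21. The proteins encoded by these models have 354 to 378 residues.

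The 250 bases before the start site of the 3 abundant receptors that were higher together with 4T1-CM are shown 5′ to 3′ on the strand of the gene, from RefSeq on GRCm38.p6 (chr9:123968693-123968942, chr9:111057519-111057768 and chr1:128592300-128592549, all on the minus strand). Capitals mark the matches to 6 motifs searched on both strands. Ccrl2 has 3 windows in the table, and the one nearest to the deposited start is shown.
Ccr1: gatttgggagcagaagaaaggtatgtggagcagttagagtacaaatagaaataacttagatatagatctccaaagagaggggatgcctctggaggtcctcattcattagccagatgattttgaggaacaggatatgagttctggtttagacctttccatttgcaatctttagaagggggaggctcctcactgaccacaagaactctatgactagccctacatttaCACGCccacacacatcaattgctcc
Ccrl2: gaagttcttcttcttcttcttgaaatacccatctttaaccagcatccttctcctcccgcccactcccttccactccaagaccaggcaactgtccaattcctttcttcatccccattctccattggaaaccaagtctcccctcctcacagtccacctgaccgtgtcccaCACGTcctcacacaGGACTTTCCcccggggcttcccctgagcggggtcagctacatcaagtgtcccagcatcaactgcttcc
Cxcr4: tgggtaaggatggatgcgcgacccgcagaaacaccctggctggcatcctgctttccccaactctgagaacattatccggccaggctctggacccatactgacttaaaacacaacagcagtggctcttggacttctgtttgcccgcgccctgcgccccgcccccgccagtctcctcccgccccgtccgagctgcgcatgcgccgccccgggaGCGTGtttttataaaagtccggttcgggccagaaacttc

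The core of the AHR response element, GCGTG, was present once in the window of Ccr1, on the reverse strand with its first base 25 bases before the start, and once in that of Cxcr4, on the strand of the gene 39 bases before the start. These letters were found in 28.2% of 32851 windows of the same length. The window of Ccrl2 held the core of the hypoxia response element, ACGTG, which 16.6% of windows held, and the NF-kB letters GGNNTTTCC, which 4.93% held. The window of Ccr2, not printed because its start site lies inside the annotated gene, held GAAANNGAA, the core of the interferon-stimulated response element (7.13% of windows). TTCNNNGAA for STAT (7.02%) and TGANTCA for AP-1 (6.75%) were in none of the 5 windows, and that of Cx3cr1 held none of the 6 motifs. 5 of the 6 receptors matched the table of promoters. ACGTG and GCGTG can overlap in part, and a match describes letters only.

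Reads are listed below with the pair from normal medium first and the pair from 4T1-CM after it, and within a pair DMSO before CH223191. Ccr1 had 1292, 1776, 3392 and 3202 reads, and its level was 81.0, 112, 194 and 197 CPM. Both libraries with 4T1-CM were above both with normal medium, and the library with normal medium and CH223191 lay between. With DMSO the ratio of 4T1-CM to normal medium was 2.39 (95% interval 2.24 to 2.55), and with CH223191 it was 1.76 (1.67 to 1.87). The log2 response to 4T1-CM was therefore smaller with CH223191 than with DMSO, 0.82 against 1.26, a difference of -0.44 (-0.56 to -0.31). Of all genes, 17.2% had a difference as low or lower. CH223191 against DMSO gave a ratio of 1.38 (1.28 to 1.48) in normal medium and of 1.02 (0.97 to 1.07) in 4T1-CM.

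Ccrl2 had 1300, 1312, 3197 and 3022 reads, or 81.5, 82.5, 183 and 186 CPM. The 2 libraries of each medium lay close together and the media were well apart. The ratio of 4T1-CM to normal medium was 2.24 (2.10 to 2.39) with DMSO and 2.25 (2.11 to 2.41) with CH223191. The log2 responses differed by 0.01 (-0.12 to 0.14). CH223191 against DMSO gave 1.01 (0.94 to 1.09) in normal medium, and for 4T1-CM the value was 1.02 (0.97 to 1.07).

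Cxcr4 had 1376, 1434, 4649 and 4518 reads, or 86.3, 90.2, 266 and 278 CPM. The ratio of 4T1-CM to normal medium was 3.08 (2.90 to 3.27) with DMSO and 3.08 (2.91 to 3.28) with CH223191, and the log2 responses differed by 0.00 (-0.12 to 0.13). Here too the media were apart and the inhibitor moved little. CH223191 against DMSO gave 1.04 (0.97 to 1.13) in normal medium, and for 4T1-CM the value was 1.05 (1.005 to 1.09).

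Cx3cr1 had 7 and 2 reads in normal medium with DMSO and CH223191, and 247 and 176 in 4T1-CM. These are 0.44, 0.13, 14.1 and 10.8 CPM. Cx3cr1 thus had few reads in normal medium and many in 4T1-CM, in cultures with either DMSO or CH223191. The ratio of 4T1-CM to normal medium was 32.1 (15.4 to 80.8) with DMSO. With CH223191 the 176 reads against 2 gave a ratio of 86.1 with an interval of 23.5 to 717. In 4T1-CM the library with CH223191 was lower than that with DMSO, by a ratio of 0.77 (0.63 to 0.94), and in normal medium 2 reads against 7 gave 0.29 (0.03 to 1.504). The gene overlaps 9 other annotated genes, of which Gorasp1, Csrnp1 and Xirp1 lie on the same strand, and whether counting used the strand is not given in the sources used here. Gorasp1 had 441 to 537 reads, Csrnp1 190 to 291, and the opposite-strand gene Wdr48 563 to 687. Ttc21a, also on the opposite strand, had 4, 5, 13 and 12 reads, and the other 5 had at most 2.

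Ccr7 had 0, 1, 24 and 13 reads. A count of 0 allows 3 reads, or 0.188 CPM in the library with normal medium and DMSO. The level of Ccr7 with 4T1-CM and DMSO was 7.29 times this value, with its own 24 reads taken as exact. With counting error in both libraries, the interval of the ratio began at 5.48 and had no upper end. With CH223191, 13 reads against 1 gave a ratio of 12.7 with an interval of 1.91 to 541. In 4T1-CM, CH223191 against DMSO gave 0.58 (0.27 to 1.19), a difference that was not detectable at this depth. The level of 1.37 and 0.80 CPM with 4T1-CM was far under that of Cx3cr1.

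Ccr2 had 32, 22, 27 and 26 reads, or 2.01, 1.38, 1.54 and 1.60 CPM. No order of the libraries was seen. The ratio of 4T1-CM to normal medium was 0.77 (0.44 to 1.32) with DMSO and 1.16 (0.63 to 2.14) with CH223191, while CH223191 against DMSO gave 0.69 (0.38 to 1.22) in normal medium, and for 4T1-CM 1.04 (0.58 to 1.85). At 22 to 32 reads, a difference between the media was not detectable at this depth. Of the 50-base words of Ccr2 transcripts, 1.91% also occurred in other genes. Cx3cr1 shared 1.06% of its words, and Ccr1, Ccr7, Ccrl2 and Cxcr4 shared 0.

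**Figure D2:**
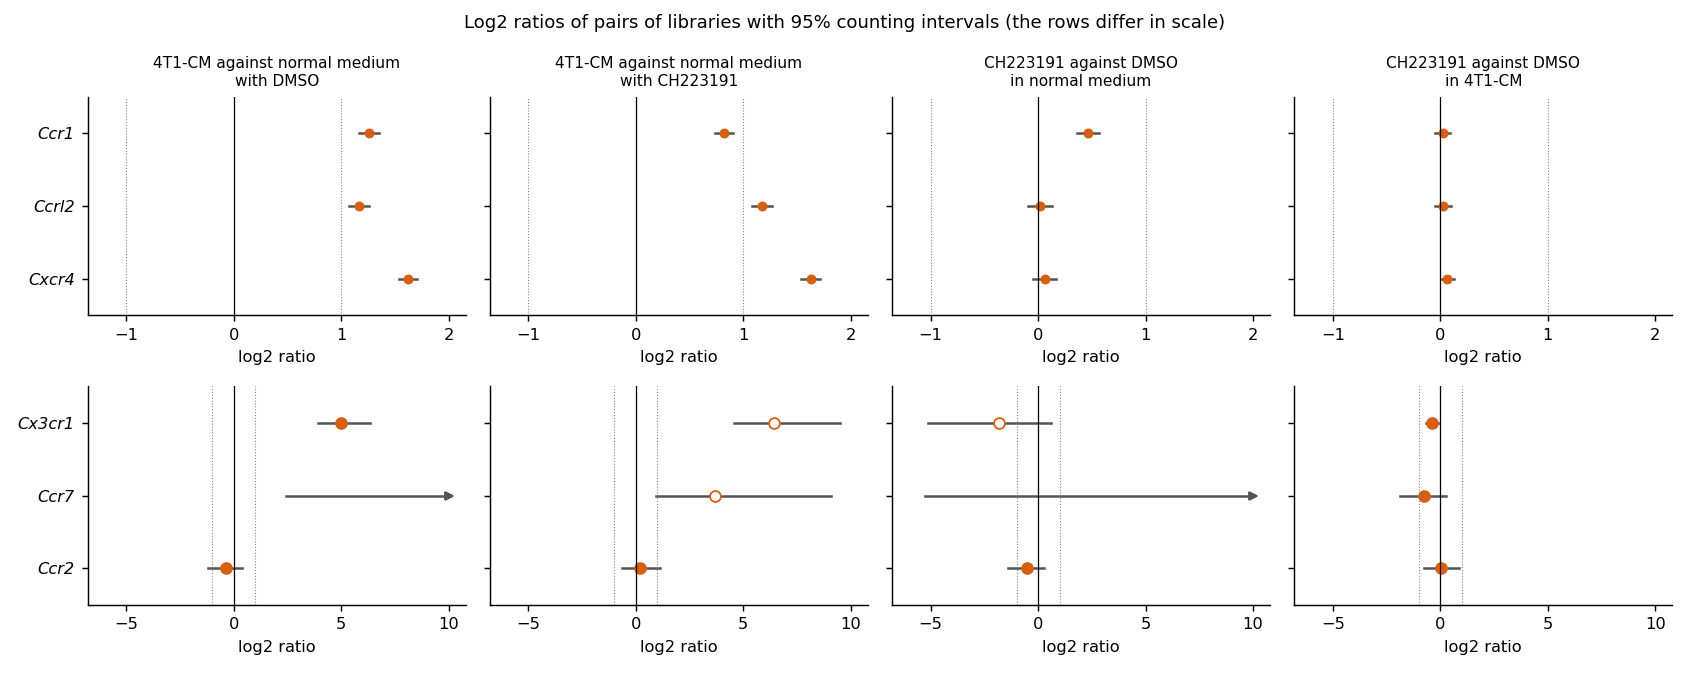
Log2 ratios of pairs of libraries (x axis) for the 6 receptors, with the exact 95% interval of the split of their reads as lines; open circles have 1 to 3 reads in a library, arrows run beyond the axis, and a line without a circle has 0 reads in the denominator. The upper row (Ccr1, Ccrl2, Cxcr4) and the lower row (Cx3cr1, Ccr7, Ccr2) have different scales, and dotted lines mark 2-fold. Ccrl2 and Cxcr4 lie beyond 2-fold in both comparisons of media and near 0 in both comparisons of CH223191 with DMSO.

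Against all genes, the receptors were read by the ratio with a prior count of 0.5. With DMSO, 5 of the 6 were at least 2-fold higher with 4T1-CM and 0 at least 2-fold lower, where 12.2% of the 13715 genes were higher and 6.11% lower. With CH223191, 4 of the 6 were higher (Ccrl2, Cxcr4, Cx3cr1 and Ccr7) and 0 lower, where 12.0% of genes were higher and 7.86% lower. These 4 were higher in both comparisons, which share no library, beside 8.18% of all genes. Ccr7 and Cx3cr1 entered only through the libraries with 4T1-CM, in which they were high. Of the 4 receptors with at least 10 reads in every library, Ccrl2 and Cxcr4 were at least 2-fold higher in both, beside 4.98% of 11765 such genes. The median log2 ratio of all genes was 0.01 with DMSO and 0.02 with CH223191.

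For CH223191 against DMSO in normal medium, 1 of the 6 was at least 2-fold higher (Ccr7, 1 read against 0) and 1 at least 2-fold lower (Cx3cr1, 2 reads against 7), where 4.84% of genes were higher and 3.31% lower. Neither carries enough reads for a fold to be read from it. In 4T1-CM, 0 of the 6 were past 2-fold in either direction, where 2.75% of genes were higher and 2.66% lower. The comparisons with CH223191 share libraries with those of the media, so the 4 comparisons are not independent.

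**Figure D3:**
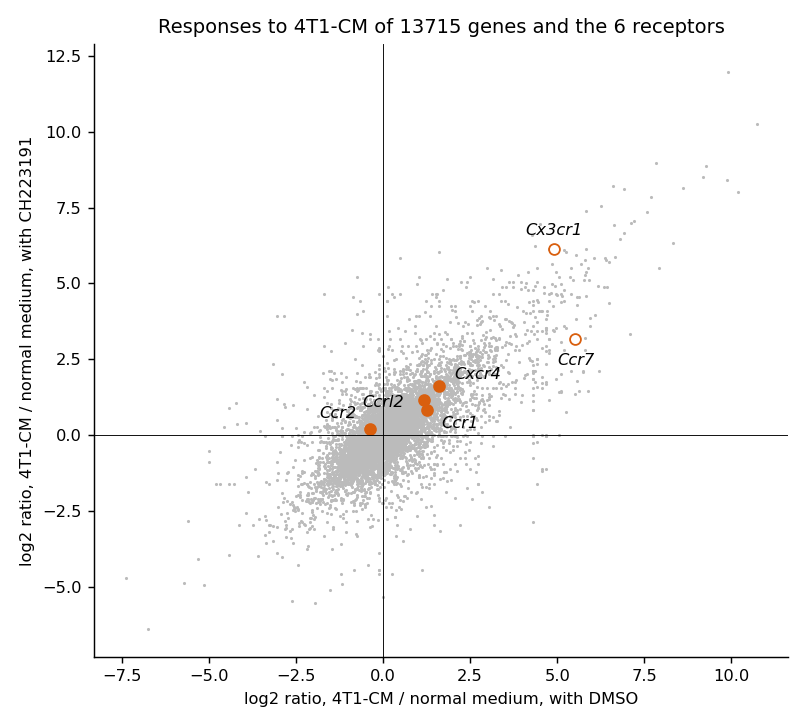
Log2 ratio of 4T1-CM to normal medium with DMSO (x axis) and with CH223191 (y axis), with a prior count of 0.5, for 13715 genes (grey points) and the 6 receptors (orange circles, open where a library of normal medium had 3 reads or fewer). Ccrl2 and Cxcr4 have nearly equal responses on the 2 axes, and Ccr1 has the larger one with DMSO.

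An additive quasi-likelihood fit of edgeR over the 4 libraries, with medium and inhibitor as terms, leaves 1 residual degree of freedom and counts any change of the response with CH223191 as error. In it, 5 of the 6 receptors were higher with 4T1-CM at an adjusted p under 0.05, as were 16.4% of all genes. Ccr7 and Cx3cr1 are 2 of the 5, and they entered the fit only through the libraries with 4T1-CM, so their p-values are given as a description. The log2 effect of the medium was 1.62 for Cxcr4 (adjusted p = 6.17e-06), 1.17 for Ccrl2 (5.76e-05), 1.04 for Ccr1 (0.000329), 5.44 for Cx3cr1 (1.09e-06) and 4.79 for Ccr7 (0.00602). For Ccr2 it was -0.10 (adjusted p = 0.87). The term of the inhibitor passed for 0 of the 6 receptors, where 0.0802% of all genes passed after adjustment. At an unadjusted p under 0.05 it also passed for 0 of the 6, beside 880 of the 13715 genes. The adjusted p-values of the inhibitor were between 0.825 and 0.978.

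Between genes, levels were compared per kilobase of the gene length given in the table. Per length, Cxcr4 led the 6 receptors in every library, at 47.7, 49.9, 147 and 154 CPM per kb. Ccrl2 (31.4, 31.8, 70.3 and 71.6) and Ccr1 (28.6, 39.4, 68.4 and 69.6) came next. In both libraries with 4T1-CM these neighbours did not differ beyond counting error, with a ratio of 1.03 (0.98 to 1.08) in each. In normal medium Ccrl2 was the higher of them with DMSO, by 1.10 (1.02 to 1.19), and Ccr1 with CH223191, by 1.24 (1.16 to 1.33). The other 3 receptors were far lower. In normal medium with DMSO their order was Ccr2 at 0.30 CPM per kb, Cx3cr1 at 0.10 and Ccr7 at 0. In 4T1-CM with DMSO it was Cx3cr1 at 3.13, Ccr7 at 0.69 and Ccr2 at 0.23, so Cx3cr1 and Ccr7 had passed Ccr2. With CH223191 in 4T1-CM, Ccr7 and Ccr2 did not differ beyond counting error (ratio 1.71, interval 0.81 to 3.45).

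The 6 receptors supplied most reads of the 24 receptor genes described here, which are chemokine receptors and the chemerin receptor Cmklr1. They took 90.6% of the reads in 4T1-CM with DMSO (exact binomial 95% interval 90.1 to 91.1). In the other 3 libraries they took 91.9% to 92.5%. Of the 12727 reads in 4T1-CM with DMSO, 11536 were theirs and 1131 those of Cmklr1. The 24 genes summed to 273, 309, 727 and 732 CPM. Of the 18 further receptors, 5 had at least 10 reads in at least 1 library, and Ccr4, Ccr8 and Ackr1 had 0 reads in every library. Cmklr1, the signalling receptor for chemerin, had 274, 307, 1131 and 874 reads, and its log2 ratio of 4T1-CM to normal medium was 1.91 (1.72 to 2.11) with DMSO and 1.48 (1.29 to 1.67) with CH223191. Of the 5, it alone was at least 2-fold higher with 4T1-CM, in both comparisons. Cxcr3, known from T cells, had 29, 21, 8 and 11 reads, and Cxcr2, the neutrophil receptor, had 12, 9, 2 and 0. The atypical receptor Ackr3, which also binds CXCL12, had 0, 0, 8 and 7 reads, and was below the minimum of 10.

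**Figure D4:**
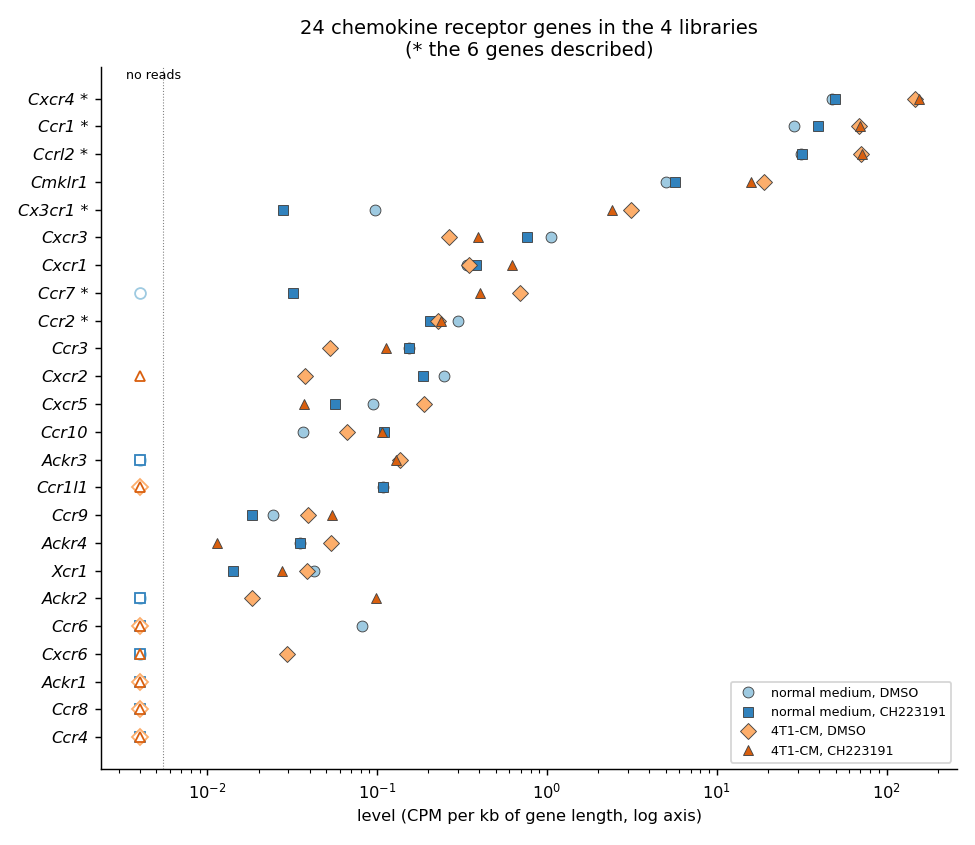
Level of 24 genes, chemokine receptors and Cmklr1, in CPM per kb of gene length (log axis), 1 point for each of the 4 libraries. Genes are ordered by the mean level. Open points left of the dotted line have 0 reads, and the stars mark the 6 receptors described. Cxcr4, Ccr1 and Ccrl2 lie above all others, and Cx3cr1 and Ccr7 have the widest gaps between normal medium and 4T1-CM among the stars.

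Of 15 genes for ligands of these receptors, 10 had at least 10 reads in at least 1 library. With DMSO, 4 of the 10 were at least 2-fold higher with 4T1-CM and 2 at least 2-fold lower, with a median log2 ratio of 0.61. With CH223191, 2 were higher and 1 lower, with a median of 0.28. These counts stand beside 12.2% of all genes higher and 6.11% lower with DMSO, and 12.0% and 7.86% with CH223191. Among ligands of CCR1, Ccl6 had 3065, 4963, 7972 and 10690 reads, with log2 ratios of 1.24 (1.18 to 1.30) and 1.08 (1.03 to 1.13), and Ccl9 had 2578, 3500, 7167 and 6146 reads, with 1.34 (1.27 to 1.41) and 0.78 (0.72 to 0.84). Ccl5 went from 3 and 9 reads to 111 and 106. Ccl3 had log2 ratios of 0.80 (0.69 to 0.92) and 0.20 (0.09 to 0.32). Ccl4, also of the list, went the other way with 263, 273, 189 and 172 reads, and Ccl7 had 66, 46, 97 and 58.

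For CCR2, Ccl2 had 440, 467, 607 and 342 reads, higher with 4T1-CM with DMSO (log2 ratio 0.33, 0.15 to 0.51) and lower with CH223191 (-0.48, -0.69 to -0.28). Cxcl12, the ligand of CXCR4, had 16, 14, 2 and 3 reads, the opposite order to its receptor. Mif, which also binds CXCR4, had 1663, 2426, 5241 and 4876 reads, with log2 ratios of 1.52 (1.44 to 1.60) and 0.98 (0.91 to 1.05). Cx3cl1 had at most 15 reads. Both ligands of CCR7, Ccl19 and Ccl21a, had 0 reads in every library, where the floor of 3 reads was 0.171 to 0.189 CPM. Rarres2, the gene of chemerin, had at most 6 reads. Ligands carried in by 4T1-CM itself were not measured here.

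Genes that act after the receptors were read as 2 lists. Of 17 G protein and second messenger genes, 16 were kept, and their median log2 ratio with 4T1-CM was -0.13 with DMSO and -0.16 with CH223191. Dock2, a guanine nucleotide exchange factor for Rac in leukocyte migration, was at least 2-fold lower in both comparisons, at -1.18 (-1.24 to -1.12) and -1.17 (-1.23 to -1.10). Prex1, another such factor that responds to G protein βγ subunits, was at 0.94 (0.88 to 0.999) and 1.20 (1.14 to 1.27). Gng5, a γ subunit, was at 1.02 (0.93 to 1.11) with DMSO and -0.12 (-0.19 to -0.04) with CH223191. Gnai2, the main inhibitory α subunit of leukocytes, had 12865 to 14212 reads and log2 ratios of -0.13 and -0.17. With CH223191 against DMSO, 0 of the 16 genes were past 2-fold in either medium, where few genes were (4.84% higher and 3.31% lower in normal medium, 2.75% and 2.66% in 4T1-CM).

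Of 16 listed genes that switch receptors off, 14 were found in the table by name and kept, and the median log2 ratio with 4T1-CM was -0.27 with DMSO and -0.38 with CH223191. Rgs2 and Rgs18, which speed the shut-off of G proteins, were at least 2-fold lower in both comparisons. Rgs18 had 372, 353, 91 and 92 reads, and Rgs2 had 3491, 3415, 1454 and 1340. Rgs16, of the same family, was higher, with 53, 52, 143 and 149 reads. Rgs1 was at -0.67 and -0.89, under 2-fold. Arrb2, which encodes an arrestin that binds activated receptors, was at 0.98 (0.89 to 1.08) and 0.95 (0.85 to 1.04), while Arrb1 was at -0.26 and -0.37. In either medium, 0 of the 14 genes were past 2-fold with CH223191, beside the same small shares of all genes (4.84% and 3.31%, then 2.75% and 2.66%).

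The macrophage markers were themselves higher with 4T1-CM, by a median log2 ratio of 1.25 (range 0.41 to 3.52 over the 8 genes) with DMSO and 1.10 (0.07 to 3.83) with CH223191. Relative to that median, Ccr1 was at 0.01 with DMSO and -0.29 with CH223191, and Ccrl2 at -0.09 and 0.07. Cxcr4 was at 0.37 and 0.52, and Cx3cr1 at 3.66 and 5.02. With DMSO, Ccr1 and Ccrl2 were thus higher by about as much as the median marker, and Cxcr4 and Cx3cr1 were higher by more in both comparisons. This relative scale was chosen after the values were seen, and the part of the markers' own difference in the levels of the receptors was not tested.

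Other cell types were read by their markers. Of the 10 dendritic cell genes, Flt3 had 0, 0, 0 and 2 reads, Siglech had 0 in every library and Zbtb46 had 14 to 22. Clec9a, a marker of cross-presenting dendritic cells, had 6, 0, 23 and 13 reads, close to the 0, 1, 24 and 13 of Ccr7, and other genes of the list were higher with 4T1-CM in part. Cacnb3 had 7, 2, 86 and 110 reads and Ccl22 8, 8, 64 and 34, and Fscn1 had 53, 34, 46 and 42. Xcr1, of the same list, had 3, 1, 3 and 2 reads, and Cd209a went the other way with 8, 2, 0 and 0. That list summed to 2377, 2484, 815 and 805 CPM, nearly all of it Itgax, which macrophages also express. The monocyte list, which includes Ccr2, summed to 3.45, 3.58, 8.57 and 8.43 CPM. Ly6c2 had 0 reads in every library, and Nr4a1, a transcription factor of patrolling monocytes that other activated cells also make, had 12, 18, 111 and 101, higher in the same libraries as Cx3cr1. The 9 neutrophil genes summed to 67.6, 74.6, 242 and 181 CPM, with Ly6g, Retnlg and S100a9 at 0 throughout. Mmp8, a collagenase, had 35, 21, 2142 and 759 reads, S100a8 had 99, 190, 560 and 412, and Csf3r had 929, 959, 1521 and 1759, all higher with 4T1-CM. Cxcr2, also of that list, was lower with 12, 9, 2 and 0 reads. Camp had 0, 4, 4 and 6 and Ltf 2, 4, 1 and 1. The 8 fibroblast and mesothelial genes summed to 63.4, 30.7, 149 and 127 CPM. The collagen gene Col1a2 had 429, 243, 1117 and 955 reads, and Col1a1, Col3a1 and Dcn were also higher with 4T1-CM. Pdgfra had 91, 49, 83 and 70 reads, Upk3b 4, 8, 0 and 0, Lum 3, 0, 0 and 0, and Msln at most 1. The B cell list summed to 20.2, 34.3, 7.94 and 5.29 CPM, nearly all Ighm, and the eosinophil and mast cell list to 16.2, 14.4, 6.17 and 5.85 CPM, nearly all Siglecf. The part of these cells in the levels of the receptors was not tested.

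The genes whose profile over the 4 libraries lay nearest to that of a receptor were sought among 8132 protein-coding genes whose mean level reached 10 CPM, by the distance between centred log2 CPM. For Cxcr4 they were Orai2, a calcium channel subunit (122, 131, 413 and 403 reads, distance 0.04), Uhrf1bp1 (0.08) and Sema4a (0.08). For Ccrl2 they were Eya4, Slfn8 and Prdx6, all at 0.03. For Ccr1 they were Tmem37 (0.03), Klf7 (0.04) and Hmox1 (0.05). Hmox1, which encodes the heme-degrading enzyme heme oxygenase 1, had 7506, 10816, 20252 and 19179 reads and so shared with Ccr1 the higher level in normal medium with CH223191. For Cx3cr1 the nearest were Ass1, of arginine synthesis (51, 27, 2071 and 1928 reads, distance 0.57), Clmp (0.63) and Serpinb2 (0.68). For Ccr7 they were Pde4b, Smpdl3b and Mcemp1, at 0.67 to 0.91, and both of these last sets are set by few reads in normal medium.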

How the data were processed

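The authors deposited raw counts of reads per gene, without normalization, in 1 table with a column for each of the 4 libraries, and all 4 columns were matched to the sample labels. Libraries were made with a NEBNext Ultra kit. Per the labels' processing notes the reads were aligned with HISAT2 2.0.5 and the tool DESeq2 was used. FeatureCounts is named in the methods for alveolar macrophages, and counting, strand and annotation for these libraries are not given in the sources used here. The 4 count columns were used, with the gene length column for levels between genes.

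Where a symbol had several entries, the one with most reads bore it, and 103 entries went by identifier. Genes that reached 10 reads in some library entered, with TMM scaling in edgeR 4.0.16 (R 4.3.3), and log2 ratios had a prior count of 0.5. Intervals at 95% are Clopper-Pearson for ratios, Poisson for levels and conditional odds ratios for differences of responses. The additive fit used edgeR's quasi-likelihood test with Benjamini-Hochberg adjustment over all genes kept. Ratios were recomputed with other scaling (DESeq2 1.42.0 or plain totals), without the minimum, with 10 reads demanded of all libraries, with 5 as prior count, over protein-coding genes, by the additive fit, and the scale of the macrophage markers, which was added after seeing the data. The procedure was tested on simulated counts that held counting error only, with no spread between cultures. Only genes well above the minimum of reads were changed in them. Motifs, 50-base words (GENCODE M21, both strands) and figures were made with Python 3.11.15 and matplotlib 3.10.9.

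The receptors and gene lists were chosen with earlier results of these data known. The text names the 6 receptors, genes of the listed families and markers, and for each receptor whose log2 CPM spans at least 1 the 3 nearest profiles. Protein sequences were not used here, and 1 further receptor gene is not reported here.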

Additional observations from a re-analysis of the deposited data

How the results depend on the processing

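With the size factors of DESeq2, total counts, no filter, a prior count of 5 and protein-coding genes alone, the 24 log2 ratios of the 6 receptors all lay within their counting intervals, and so did the 6 differences between responses. The median ratio of all genes moved by at most 0.06. With at least 10 reads in every library, Cx3cr1 and Ccr7 drop out by construction. The receptors at least 2-fold higher with 4T1-CM were then 3 with DMSO and 2 with CH223191, and those past 2-fold with CH223191 in normal medium were 0 higher and 0 lower. That last comparison also gave 0 higher and 0 lower with a prior count of 5 and in the additive fit, since the main count rests on 10 reads or fewer.

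In the additive fit, which gives 1 effect for both media, Ccr1 was outside its interval in all 4 comparisons, and Ccr7 with CH223191 in normal medium turned from 1.61 to -0.55. Relative to the macrophage markers, Ccrl2 with 4T1-CM and DMSO turned from 1.16 to -0.0885, because the markers' median was higher. On that scale 11 other ratios left their intervals, and with 4T1-CM and CH223191 Ccr1 went from 0.82 to -0.29 and Ccr2 from 0.21 to -0.90. With CH223191 in normal medium Ccr1 went from 0.46 to 0.23, where the markers' own median was 0.24. In the same comparison Ccrl2 went from 0.02 to -0.22 and Cxcr4 from 0.06 to -0.17.

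Depth limits Ccr2, Ccr7 and Cx3cr1, which had at most 32, 1 and 7 reads in a library of normal medium. Each condition has 1 library, so replicates could not be left out and no replicate spread enters any value.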

Other observations

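On chromosome 9, several chemokine receptor genes lie near each other from Ccr9 (start 123678439) to Ccr2 (end 124113557), and they differed widely in these libraries. Ccr1 had 1292 to 3392 reads, while Ccr1l1, whose gene begins 8550 bases beyond it, had at most 2. Ccr3 had 3 to 8 reads and Xcr1 at most 3. Ccr2 had 22 to 32. Cxcr6 had at most 1 read, and Ccr9 had 3 to 9, with 20.1% of its 50-base words shared with other genes.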
